A study of Mus musculus and Homo sapiens with 12 samples.

Results

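The integrated stress response regulators are the transcription factors and feedback proteins that act after the translation factor eIF2 is phosphorylated. The set here held 8 genes, found by symbol in each deposited table: ATF4, ATF5, ATF3, DDIT3 (CHOP), CEBPB, CEBPG, TRIB3 and PPP1R15A (GADD34). Of these, 7 were listed among the 11513 genes of the human table and 6 by symbol among the 10430 genes of the mouse table. Mouse Atf5 stood in a row with no symbol and was found by its Ensembl identifier through the reference names, which made 7 in mouse. No row was found for CEBPB by symbol in either table, nor through the reference names in mouse, and it was not analysed here. The 797 human rows with no symbol were not looked up by identifier. All 7 listed members were tested in each species.

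Cells switch on this response when amino acids run short, when proteins misfold in the endoplasmic reticulum, or under viral or heme stress. The kinases GCN2 (EIF2AK4), PERK (EIF2AK3), PKR (EIF2AK2) and HRI (EIF2AK1) each phosphorylate eIF2. General translation falls, while the mRNA of ATF4 is translated more. ATF4 is therefore controlled largely at translation, and its mRNA level is not a direct measure of its protein. ATF4 pairs with C/EBP family partners such as CEBPG, and induces ATF5, ATF3, DDIT3 and TRIB3. PPP1R15A brings a phosphatase to eIF2 and restores translation.

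T-cell acute lymphoblastic leukaemia (T-ALL) was sampled in a human line and in mice, by RNA sequencing. The established human line KOPTK1 was treated for 72 h with the gamma-secretase inhibitor Compound E (gSI) or with DMSO, with 2 libraries per condition. Gamma-secretase releases the active part of NOTCH1, so the comparison asks what follows when NOTCH signalling is blocked. In mouse, C57BL/6 animals carried secondary transplants of NOTCH-delta E tumours, and all 4 mouse groups share this driver. They were kept for 3 weeks on diets labelled 0, 0.4, 0.8 and 8 g/kg valine, of which 8 g/kg was the control. Valine is an essential amino acid, and the diets ask how leukaemic cells respond to its shortage. GFP-positive cells were sorted from the spleen, and each diet has 1 library named TALL2 and 1 named TALL3. The meaning of the names is not given in the labels, nor is it given whether libraries of a group came from separate animals or cultures. The p-values therefore cover only library-to-library spread, and that spread may be technical. According to the protocol, valine at 0.4 or 0.8 g/L was supplied in the water of mice on deficient chow, and the doses are used here as ranks.

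Values are FPKM, reads scaled to gene length and to the library's reads. Reads recovered from the steps between FPKM values came to 22936528 to 42240446 per KOPTK1 library and 14222895 to 37687253 per mouse library, over the listed genes. Of 15 T-ALL and thymocyte markers, 12 were listed in KOPTK1 and 14 in mouse. Their summed FPKM in the sorted mouse cells was 2886 and 2904 at 0 g/kg, against 2620 and 3369 at 8 g/kg (TALL2 and TALL3 in each pair). Tcf7 made up much of that sum, at 1066 and 932 FPKM against 1172 and 1182 FPKM. Single markers went both ways, with 7 higher and 7 lower by log2 fold change. Cd4 was at 2.90 and 87.2 FPKM at 0 g/kg, against 4.91 and 13.5 FPKM at 8 g/kg. Cd8b1 was at 42.0 and 49.7 FPKM at 0 g/kg, against 60.9 and 84.5 FPKM at 8 g/kg. Neutrophil markers, of which 13 of 14 were listed in mouse, summed to 554 and 337 FPKM at 0 g/kg, against 0.964 and 10.4 FPKM at 8 g/kg, where 5 of the 13 genes were at 0 in TALL2 and 1 was at 0 in TALL3. At 0.4 g/kg that sum was 12.9 and 75.8 FPKM, and at 0.8 g/kg 14.3 and 12.2 FPKM. Erythroid markers, 8 of 15 listed, were lower, with 12.3 and 7.99 FPKM at 0 g/kg, against 105 and 259 FPKM at 8 g/kg, and 5 of the 8 genes were at 0 in TALL2 at 0 g/kg. In sorted bulk cells, more RNA of a gene per cell and more cells that make it cannot be told apart.

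The first comparison was gSI against DMSO in KOPTK1. PPP1R15A, ATF5 and TRIB3 rose with the inhibitor by 1.07, 1.16 and 0.98 on the log2 scale, DDIT3 rose by 0.68, CEBPG fell by 0.29, and ATF4 and ATF3 did not pass the test. So 4 of the 7 members rose and 1 fell (limma on log2(FPKM + 1), Benjamini-Hochberg adjusted p under 0.05). Over all 6679 tested genes 22.8% rose and 30.3% fell, and the median log2 fold change of the 7 members was 0.68, beside -0.03 for all genes tested. Plain read totals in place of the deposited scaling, in limma-voom, gave 2671 genes higher and 1628 lower, beside 1524 and 2023 here, and moved the median of all genes to 0.09. Log2 fold changes here are of FPKM + 1, which understates changes of low genes.

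ATF4 (ENSG00000128272), the central transcription factor of the response, was at 83.4 and 92.4 FPKM with gSI, against 98.2 and 92.3 FPKM with DMSO. The ranges overlapped, and the log2 fold change was -0.12 (SE 0.09, limma adjusted p = 0.267). Its sign turned with quantile scaling, to 0.09, and with limma-voom on plain read totals, to 0.01.

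Among the factors that ATF4 induces, ATF5 (ENSG00000169136), an activator of stress and mitochondrial quality control genes, was at 79.4 and 94.9 FPKM with gSI, against 35.5 and 41.4 FPKM with DMSO. The groups were far apart. The log2 fold change was 1.16 (SE 0.09, limma adjusted p = 7.29e-11). DDIT3 (ENSG00000175197), the factor CHOP that promotes cell death under lasting stress, was at 21.8 and 22.9 FPKM with gSI, against 13.4 and 13.7 FPKM with DMSO. The groups were well apart, with a log2 fold change of 0.68 (SE 0.08, limma adjusted p = 7.25e-08). ATF3 (ENSG00000162772), an early stress-induced factor, was at 1.24 and 1.29 FPKM with gSI, against 1.18 and 1.14 FPKM with DMSO. Its groups did not overlap, yet the difference was small (log2 fold change 0.07, SE 0.06, limma adjusted p = 0.317). Among the alternatives it passed only with limma-voom on plain read totals, at 0.26 (adjusted p = 0.00117).

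CEBPG (ENSG00000153879), a partner with which ATF4 binds DNA, went the other way. It was at 22.3 and 20.9 FPKM with gSI, against 27.7 and 25.4 FPKM with DMSO. The log2 fold change was -0.29 (SE 0.08, limma adjusted p = 0.00487). This call ended with quantile scaling (-0.12, adjusted p = 0.156), without DMSO replicate 1 (-0.23, adjusted p = 0.0578) and without gSI replicate 2 (-0.24, adjusted p = 0.119).

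The feedback arm rose. TRIB3 (ENSG00000101255), a pseudokinase that binds ATF4 and CHOP and damps their activity, was at 17.7 and 17.0 FPKM with gSI, against 7.94 and 8.60 FPKM with DMSO. Its log2 fold change was 0.98 (SE 0.08, limma adjusted p = 6.58e-11). PPP1R15A (ENSG00000087074), the stress-induced subunit of the eIF2 phosphatase, was at 37.6 and 37.5 FPKM with gSI, against 17.7 and 17.0 FPKM with DMSO. This gave a log2 fold change of 1.07 (SE 0.08, limma adjusted p = 1.60e-11). Its constitutive relative PPP1R15B was at 33.8 and 33.2 FPKM with gSI, against 31.1 and 28.8 FPKM with DMSO, and did not pass (0.16, SE 0.08, limma adjusted p = 0.109). The rises of ATF5, DDIT3, TRIB3 and PPP1R15A passed in each of the 14 alternatives run.

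**Figure D1:**
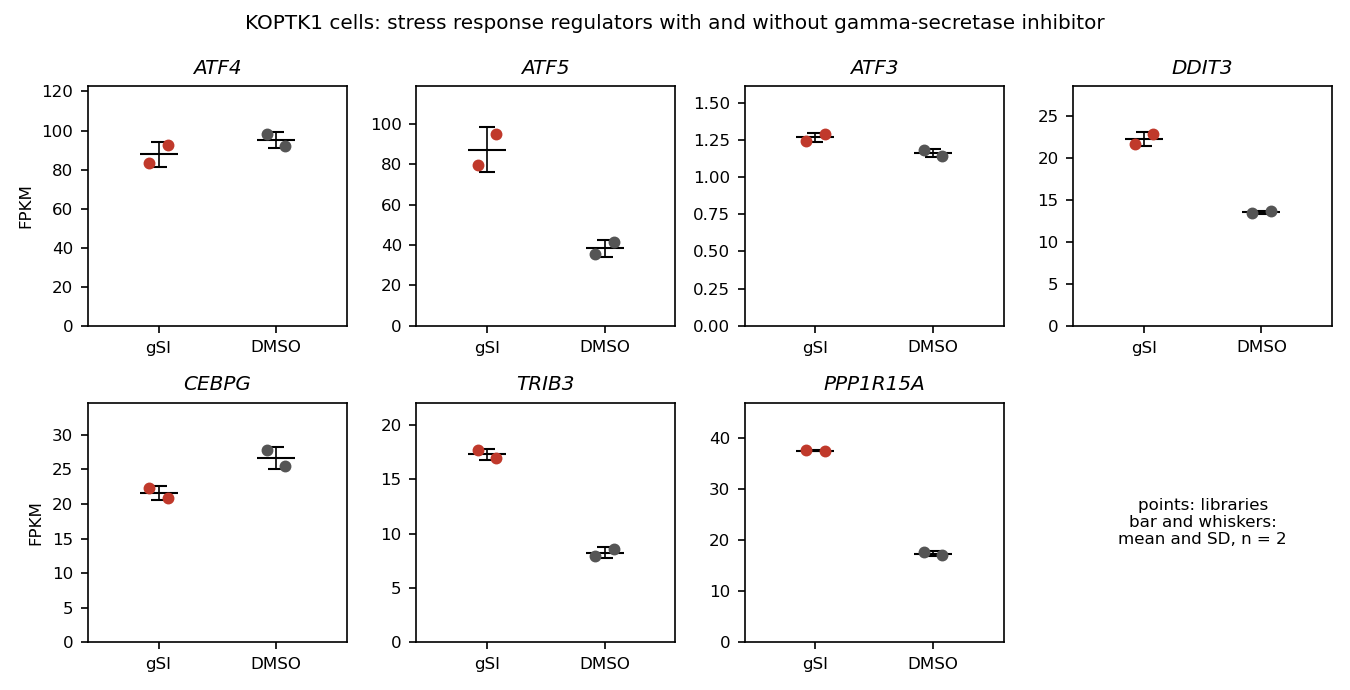
FPKM of the 7 listed members in KOPTK1 cells with gSI (left) and DMSO (right), each on its own linear axis from 0. Points are libraries, and the bar and whiskers are the mean and SD of 2 libraries. ATF5, DDIT3, TRIB3 and PPP1R15A stand clear of DMSO, whereas ATF4 overlaps.

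The rest of the pathway was read from lists of related genes. Their counts stand beside 22.8% of all tested genes that rose and 30.3% that fell. The eIF2 kinases did not pass: EIF2AK4 was at 1.029 and 1.10 FPKM with gSI, against 1.18 and 1.09 FPKM with DMSO, and EIF2AK3 was at 1.18 and 1.17 FPKM with gSI, against 1.15 and 0.981 FPKM with DMSO. In the list of kinases and their regulators 1 of 11 tested genes rose, the PERK and PKR inhibitor DNAJC3 (0.32), and 2 fell, the phosphatase subunits PPP1CC (-0.21) and PPP1CB (-0.19). Of 10 genes of eIF2, its exchange factor eIF2B and related initiation factors, 7 fell and 2 rose (median -0.28). The falls were largest for EIF2A (-0.98) and the eIF2 subunits EIF2S3 (-0.81) and EIF2S2 (-0.72), and EIF5 (0.34) and EIF2B4 (0.19) rose.

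Targets of ATF4 did not move as one. Of 35 tested, 8 rose and 19 fell, with a median of -0.24, beside 22.8% and 30.3% of all tested genes. CHAC1, which degrades glutathione, was at 9.62 and 9.43 FPKM with gSI, against 4.27 and 3.78 FPKM with DMSO (log2 fold change 1.07, limma adjusted p = 7.86e-12). SESN2, an inhibitor of mTORC1 when leucine is short, rose by 0.67, and the amino acid transporter subunit SLC3A2 rose by 0.59. The mTORC1 inhibitor DDIT4 was at 30.7 and 33.5 FPKM with gSI, against 95.6 and 108 FPKM with DMSO (-1.64, limma adjusted p = 7.33e-15). The growth factor VEGFA (-1.29) and the proline synthesis gene PYCR1 (-0.84) fell too. ASNS, asparagine synthetase and a standard readout of amino acid shortage, was at 3.48 and 3.22 FPKM with gSI, against 3.31 and 3.07 FPKM with DMSO (0.05, limma adjusted p = 0.574).

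Genes of the unfolded protein response of the endoplasmic reticulum rose. Of 17 tested, 14 rose and none fell (median 0.39), beside 22.8% and 30.3% of all tested genes. The other 3 were EDEM1, CALR and PDIA6. The chaperone HSPA5 (BiP) was at 35.7 and 34.0 FPKM with gSI, against 17.6 and 17.5 FPKM with DMSO (0.95, limma adjusted p = 1.98e-10). The ubiquitin ligase SYVN1 (0.77), the chaperone HYOU1 (0.74) and the transcription factor XBP1 (0.55) rose beside it. Of 6 genes linked to CHOP and cell death, BBC3 (0.56) and GADD45A (0.22) rose, and PMAIP1 (-0.74), BCL2 (-0.66) and ERO1L (-0.42) fell. Among 11 other bZIP factors 4 rose and 4 fell, led by JUND (0.91) and ATF2 (-0.29), beside 22.8% and 30.3% of all tested genes. The Tribbles relative TRIB2 fell, with 3.54 and 3.45 FPKM with gSI, against 4.80 and 4.21 FPKM with DMSO (-0.29, limma adjusted p = 0.00227). Of 4 listed immediate-early genes 3 rose, by at most 0.26 (EGR1), and all 9 tested T-ALL and thymocyte markers fell. The 12 listed markers of that list summed to 227 and 241 FPKM with gSI, against 393 and 380 FPKM with DMSO. The part of cell state in the members' changes was not tested.

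The mouse diets were compared next, beginning with the valine-free diet against 8 g/kg. All 7 members averaged higher at 0 g/kg than at 8 g/kg. Atf3 passed the filter on low values only through the 0 g/kg libraries (mean of the other 6 libraries 0.383 FPKM). Medians here, and counts set beside all tested genes, are therefore given over the other 6 members. For 5 of these 6, all but Atf4, the lower 0 g/kg library exceeded the higher control library, as it did for 19.1% of the 9943 tested genes. No gene of the mouse table passed at an adjusted p of 0.05 in this comparison (0% of 9943), while 1025 genes had an unadjusted p under 0.05 in limma. The mouse differences that follow are therefore measured values that missed the threshold. The same 5 members were higher at an unadjusted p under 0.05 in limma, beside 4.79% of all tested genes. That count was 3 without either control library and 2 when TALL3 at 0 g/kg was left out. The median log2 fold change of the 6 was 1.48, beside -0.01 for all genes tested.

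**Figure D2:**
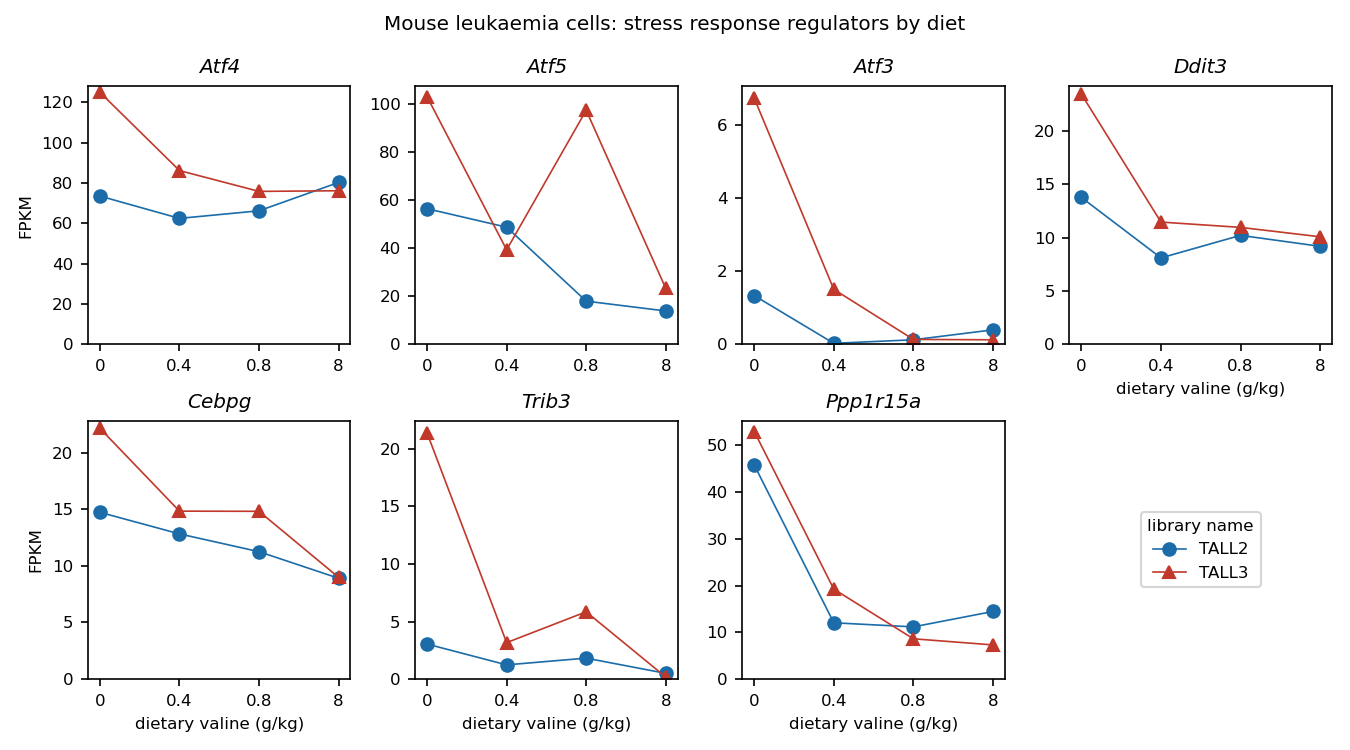
FPKM of the 7 listed members in sorted mouse leukaemia cells by dietary valine (0, 0.4, 0.8 and 8 g/kg, equally spaced), each on its own linear axis from 0. Circles are the libraries named TALL2 and triangles those named TALL3, and lines join libraries of 1 name. TALL3 at 0 g/kg is the highest library for every member.

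Atf4 itself (ENSMUSG00000042406, GRCm38 chromosome 15, 80255184 to 80257541, plus strand) had the smallest difference of the 7. In TALL2 it was at 73.5, 62.5, 66.2 and 80.3 FPKM on 0, 0.4, 0.8 and 8 g/kg. In TALL3 it was at 125, 86.2, 75.9 and 76.2 FPKM on the same diets. At 0 g/kg the TALL3 library was 1.64-fold the TALL3 control, whereas the TALL2 library was at 0.916 of the TALL2 control. The log2 fold change of 0 over 8 g/kg was 0.29 (SE 0.27, limma adjusted p = 0.728), and it was -0.09 without the TALL3 library at 0 g/kg and 0.67 without the TALL2 library there.

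Atf5 (ENSMUSG00000038539, minus strand of chromosome 7 at 44812256-44816658) was higher on every restricted diet in at least 1 library. In TALL2 it was at 56.5, 48.8, 17.96 and 13.9 FPKM on 0, 0.4, 0.8 and 8 g/kg, and in TALL3 at 103, 39.3, 97.5 and 23.3 FPKM. The TALL3 library at 0.8 g/kg was nearly as high as at 0 g/kg, while the TALL2 library at 0.8 g/kg lay between the 2 controls. The 0 over 8 g/kg log2 fold change was 2.03 (SE 0.76, limma adjusted p = 0.463). The gene shares 571 bases of its span with Nup62 and 272 with Il4i1, both on the other strand. The strand setting of the counting is not given in the sources used here, so reads of these genes may be mixed.

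Atf3 (ENSMUSG00000026628, minus strand of chromosome 1 at 191170296-191218039) was the lowest of the members. In TALL2 it was at 1.33, 0.0255, 0.122 and 0.393 FPKM on 0, 0.4, 0.8 and 8 g/kg, from 51, 2, 4 and 17 recovered reads. In TALL3 it was at 6.73, 1.502, 0.133 and 0.122 FPKM, from 193, 52, 7 and 4 reads. The 0 g/kg libraries and TALL3 at 0.4 g/kg were the only ones above 1 FPKM, and the last of these lay above TALL2 at 0 g/kg. The log2 fold change of 0 over 8 g/kg was 1.76 (SE 0.66, limma adjusted p = 0.462). It was 0.90 when TALL3 at 0 g/kg was left out, 0.71 with a pseudocount of 5, 3.24 with one of 0.1 and 3.44 with limma-voom.

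Ddit3 (ENSMUSG00000025408, plus strand of chromosome 10 at 127290774-127296288) was at 13.8, 8.11, 10.2 and 9.19 FPKM in TALL2 and at 23.5, 11.5, 10.97 and 10.1 FPKM in TALL3 on the same 4 diets. It was highest at 0 g/kg in both names, and the other 6 libraries lay within 8.11 to 11.5 FPKM. The log2 fold change of 0 over 8 g/kg was 0.84 (SE 0.26, limma adjusted p = 0.410), and 0.48 when TALL3 at 0 g/kg was left out. A second annotated gene of the same name overlaps 2925 bases of it on the same strand, and Mars overlaps 68 bases on the other strand, so how reads were shared is uncertain.

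Cebpg (ENSMUSG00000056216, minus strand of chromosome 7 at 35046422-35056573) was at 14.7, 12.8, 11.3 and 8.90 FPKM in TALL2 and at 22.1, 14.8, 14.8 and 8.99 FPKM in TALL3. All 6 libraries of restricted diets lay above both controls, which differed by less than 0.1 FPKM. The 0 over 8 g/kg log2 fold change was 0.94 (SE 0.21, limma adjusted p = 0.358).

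Trib3 (ENSMUSG00000032715, chromosome 2, 152337422 to 152344032, minus strand) had the lowest control levels after Atf3. In TALL2 it was at 3.04, 1.23, 1.82 and 0.499 FPKM on 0, 0.4, 0.8 and 8 g/kg, and in TALL3 at 21.4, 3.17, 5.84 and 0.179 FPKM. All 6 restricted libraries lay above both controls. The 0 over 8 g/kg log2 fold change was 2.84 (SE 0.85, limma adjusted p = 0.406). It was 1.604 when TALL3 at 0 g/kg was left out, 1.45 with a pseudocount of 5, 4.33 with one of 0.1 and 4.42 with limma-voom. The controls rest on 22 and 6 recovered reads, in TALL2 and TALL3.

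Ppp1r15a (ENSMUSG00000040435, minus strand of chromosome 7 at 45522916-45526268) was at 45.8, 12.03, 11.2 and 14.5 FPKM in TALL2 and at 52.9, 19.2, 8.61 and 7.31 FPKM in TALL3. Both 0 g/kg libraries stood far above all others. They averaged 49.3 ± 5.06 FPKM, against 10.9 ± 5.05 FPKM at 8 g/kg (SD, n = 2 each). The log2 fold change was 2.15 (SE 0.34, limma adjusted p = 0.195), the smallest adjusted p of the members. Over its alternatives the adjusted p ran from 0.155 to 0.688. It shares 717 bases of its span with Tulp2 on the other strand.

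Motifs known to bind factors of this response were sought in the RefSeq promoter windows of build GRCm38.p6, which run from 250 bases before to 50 after a gene's start. All 8 members had a window, 9 windows in all since Atf5 has 2 starts. The motifs were the C/EBP-ATF response element TGATGNAA, the cAMP response element TGACGTCA and the unfolded protein response element TGACGTGG, each on both strands. Of 32851 windows in the table, 3.97%, 1.79% and 0.676% held them, in that order. Matches stood in 3 of the 9 member windows: Atf3 and Trib3 held the first motif and Ppp1r15a the second. The 250 bases before the start of Atf3 and Ppp1r15a are shown because each holds a match before the start. They are from RefSeq, 5′ to 3′ on the gene's own strand, with the match in capitals, at chr1:191183334-191183583 (minus strand) for Atf3 and chr7:45526269-45526518 (minus strand) for Ppp1r15a. The RefSeq start of Atf3 lies inside the longer GENCODE span given above, which begins further upstream.
Atf3: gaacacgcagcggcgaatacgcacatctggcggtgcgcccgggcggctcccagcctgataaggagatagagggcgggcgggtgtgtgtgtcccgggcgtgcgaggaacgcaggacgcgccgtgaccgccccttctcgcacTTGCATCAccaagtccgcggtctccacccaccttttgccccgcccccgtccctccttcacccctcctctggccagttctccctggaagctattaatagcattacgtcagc
Ppp1r15a: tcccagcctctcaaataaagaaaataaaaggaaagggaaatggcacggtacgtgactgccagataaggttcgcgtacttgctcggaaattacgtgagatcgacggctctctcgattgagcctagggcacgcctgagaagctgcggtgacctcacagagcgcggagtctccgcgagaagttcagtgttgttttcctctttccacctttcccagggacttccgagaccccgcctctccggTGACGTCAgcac
The Atf3 match TTGCATCA is the first motif read on the other strand and begins 110 bases before the start. The Ppp1r15a match reads the same on both strands and begins 12 bases before the start. In Trib3 the match TTACATCA begins at base 15 of the transcript, and in Asns, for comparison, TGATGAAA begins 23 bases before the start. A match is a description of these letters, and the windows of Atf4, Atf5, Ddit3, Cebpb and Cebpg held none of the 3.

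**Figure D3:**
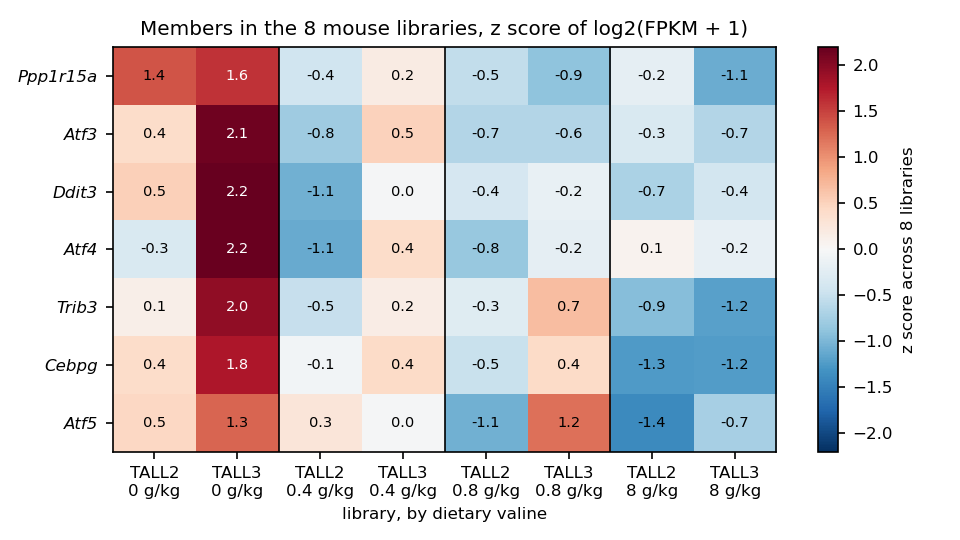
Z scores of log2(FPKM + 1) across the 8 mouse libraries for the 7 listed members (rows), with libraries ordered by dietary valine and TALL2 left of TALL3 in each diet. Ppp1r15a is high in both 0 g/kg libraries, Atf4 only in TALL3 at 0 g/kg, and Atf5 also in TALL3 at 0.8 g/kg.

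Members differed in where the partly restricted diets placed them. At 0.4 g/kg both libraries lay above both controls for Atf5, Cebpg and Trib3, 3 of the 6 members without Atf3, where 16.9% of tested genes did. At 0.8 g/kg they did so for Ddit3, Cebpg and Trib3, where 10.6% of tested genes did. Atf4 lay below both controls there, as did 22.5% of tested genes. No gene passed at either diet (0% of 9943 each, with 1059 and 433 genes at an unadjusted p under 0.05 in limma), and Cebpg had a log2 fold change of 0.57 (SE 0.21, limma adjusted p = 0.447) at 0.4 g/kg and 0.49 (SE 0.21, limma adjusted p = 0.998) at 0.8 g/kg. These comparisons share the control libraries. Ppp1r15a was at 15.6 ± 5.09 FPKM at 0.4 g/kg and 9.89 ± 1.80 FPKM at 0.8 g/kg. At 8 g/kg it was at 10.9 ± 5.05 FPKM (SD, n = 2 each). Both 0.8 g/kg libraries lay between the controls. At 0.4 g/kg the names differed, with TALL3 (19.2 FPKM) above both controls and TALL2 at 0.833 of its own control. Atf3 at 0.8 g/kg was at 0.127 ± 0.00761 FPKM, against 0.258 ± 0.192 FPKM at 8 g/kg, at the limit of what 4 to 17 reads can show.

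The valine-free diet was also set against the mean of 0.4 and 0.8 g/kg. Both its libraries were higher than all 4 partly restricted libraries for Ddit3 and Ppp1r15a. These were 2 of the 6 members without Atf3, where 10.8% of tested genes were so. Ppp1r15a differed by 1.92 on the log2 scale (SE 0.30, limma adjusted p = 0.298) and Ddit3 by 0.78 (SE 0.23, limma adjusted p = 0.620), and no gene passed (0% of 9943, with 661 genes at an unadjusted p under 0.05 in limma). Across all 4 diets, ranked by falling valine, all 7 members had a positive slope. Of the 6 without Atf3, 5, all but Atf4, had an unadjusted p under 0.05 in limma, beside 5.9% of tested genes. That count was 2 when TALL3 at 0 g/kg or TALL2 at 8 g/kg was left out, and 3 with voom. The slope of Ppp1r15a was 0.70 per step (SE 0.16, limma adjusted p = 0.226). That of Trib3 was 0.80 per step (SE 0.28, limma adjusted p = 0.328), and 0.47 when TALL3 at 0 g/kg was left out, 0.41 with a pseudocount of 5 and 1.23 with one of 0.1. No gene passed in this fit either (0% of 9943, with 1220 genes at an unadjusted p under 0.05 in limma).

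TALL3 was the higher of the names at 0 g/kg for all 7 members. There TALL3 over TALL2 was 7.03-fold for Trib3, 5.06-fold for Atf3, 1.83-fold for Atf5, 1.70-fold for Atf4 and Ddit3, 1.504-fold for Cebpg and 1.16-fold for Ppp1r15a. At 8 g/kg the same ratio was 0.358 for Trib3, 0.309 for Atf3, 1.68 for Atf5, 0.949 for Atf4, 1.10 for Ddit3, 1.01 for Cebpg and 0.506 for Ppp1r15a. The widest gaps elsewhere were those of Atf3 at 0.4 g/kg, where TALL2 had 2 reads, and of Atf5 at 0.8 g/kg (5.43-fold). Within TALL2 the 0 over 8 g/kg ratio was 6.10 for Trib3, 4.07 for Atf5, 3.38 for Atf3, 3.17 for Ppp1r15a, 1.65 for Cebpg and 1.499 for Ddit3. Within TALL3 it was 120 for Trib3, 55.3 for Atf3, 7.24 for Ppp1r15a, 4.43 for Atf5, 2.46 for Cebpg and 2.33 for Ddit3. The Atf3 and Trib3 ratios in TALL3 rest on control libraries of 4 and 6 reads. Whether the names differ in the effect of 0 g/kg against the other diets was tested as an interaction, TALL3 minus TALL2. It was 0.57 for Atf4 (SE 0.22), 0.51 for Ddit3 (SE 0.21) and 1.86 for Trib3 (SE 1.26), each at a limma adjusted p of 0.988. The value of Trib3 was 1.13 without the TALL3 library at 8 g/kg. No gene passed this test (0% of 9943, with 468 genes at an unadjusted p under 0.05 in limma).

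Members resembled one another to differing degrees over the 8 libraries. These correlations of log2(FPKM + 1) are descriptions, since the libraries share names and diets. Cebpg and Trib3 had Pearson's r = 0.957, Atf3 and Ddit3 0.938, and Atf4 and Atf3 0.907. Atf5 was most like Cebpg (0.873) and least like Atf4 (0.429). Likeness to the mean z score of the members, Atf3 included, was taken over 951 non-member genes with enough level and range. The nearest were Tnfaip3 (0.937), Malat1 (0.926), Mmp9 (0.926), Nr4a1 (0.925), Tnfrsf18 (0.924), Relb (0.914), Nfkb2, Phyh, Nfkbia and Cyb5r1. Those most like Atf4 were Pim3 (0.978), Slc39a4 (0.963), Gpr183 (0.939), Nfil3 (0.935) and Herpud1 (0.932).

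The neighbours of single members other than Atf4 were listed after their values were seen. Ppp1r15a was nearest to Fos (0.986), Dusp1 (0.974), Dnajb9 (0.968), Junb (0.965) and Chil3 (0.934). Atf3 was nearest to Nfkbia (0.976), Tnfaip3 (0.964), Nfkbid (0.962), Zfp36l1 (0.958) and Nfkbiz (0.943). Atf5 was nearest to Cdc45 (0.974), Eif4ebp1 (0.953), Yars (0.951), Aldh18a1 (0.949) and Cars (0.947). Trib3 was nearest to Sesn2 (0.952), Malat1 (0.910), Mmp9 (0.888), Zbp1 (0.882) and Tnfrsf18 (0.876). Mmp9 is also in the neutrophil list used here. Ddit3 was nearest to Tnfaip3 (0.937), Nr4a1 (0.934), Rpl10 (0.927), Nfkbia (0.924) and Nfkb2 (0.920). Cebpg was nearest to Malat1 (0.929), Cyb5r1 (0.923), Aars (0.921), Ifi27 (0.917) and Mthfd2 (0.910).

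Markers of handling and of other cells were read in the same libraries. Immediate-early and dissociation genes, 7 of 11 listed, summed to 585 and 935 FPKM at 0 g/kg, against 342 and 182 FPKM at 8 g/kg, with 217 and 427 FPKM at 0.4 g/kg and 263 and 184 FPKM at 0.8 g/kg. Fos, an early growth and stress factor, was at 58.8 and 61.3 FPKM at 0 g/kg, against 17.3 and 6.61 FPKM at 8 g/kg. At 0 g/kg the neutrophil marker sum was 554 and 337 FPKM (TALL2 and TALL3), and all 7 members were higher in TALL3. At 0.4 g/kg the sum was 12.9 and 75.8 FPKM, and all members but Atf5 were higher in TALL3. At 0.8 g/kg it was 14.3 and 12.2 FPKM, and all but Ppp1r15a were higher in TALL3. Atf3 was so only at 0.133 against 0.122 FPKM, from 7 and 4 reads. At 8 g/kg the sum was 0.964 and 10.4 FPKM, and only Atf5, Ddit3 and Cebpg were higher in TALL3. The share of all tested genes that were higher in TALL3 is not given here, so these counts have no background. Macrophage and monocyte markers, 4 of 10 listed, summed to 35.7 and 33.5 FPKM at 0 g/kg, against 6.31 and 12.98 FPKM at 8 g/kg. Of this, Lyz2, which neutrophils also express, was at 26.7 and 20.9 FPKM at 0 g/kg, against 0.140 and 1.47 FPKM at 8 g/kg. The other 3 summed to 8.96 and 12.6 FPKM at 0 g/kg, against 6.17 and 11.5 FPKM at 8 g/kg. Cd74, the only B-cell marker of 7 listed, was at 11.5 and 73.0 FPKM at 0 g/kg, against 1.498 and 13.7 FPKM at 8 g/kg, with overlapping groups. The part of other cells, and of sorting, in the members' levels was not tested.

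Genes around the members were compared in the same fit of 0 against 8 g/kg, in which none passed. Of all tested genes 19.1% lay above both controls in both 0 g/kg libraries and 22.9% below both. Of 36 tested targets of ATF4, 32 lay above both controls in both 0 g/kg libraries and none below. The median log2 fold change was 0.79, and 25 were higher at an unadjusted p under 0.05 in limma, beside 4.79% of all tested genes. The lists were chosen with earlier results of these data known. They were not cleared of genes that passed the filter on low values only through the 0 g/kg libraries. Their counts and medians are therefore descriptions and not tests. Stc2 is such a target, at 2.98 and 6.82 FPKM at 0 g/kg, against 0.0577 and 0.0152 FPKM at 8 g/kg. Asns was at 69.2, 47.3, 5.58 and 2.02 FPKM in TALL2 and at 84.6, 17.1, 47.5 and 2.90 FPKM in TALL3 on 0, 0.4, 0.8 and 8 g/kg. Like Atf5 it was higher in TALL2 than in TALL3 at 0.4 g/kg and higher in TALL3 at 0.8 g/kg. Sesn2 was at 3.32, 2.97, 4.43 and 2.70 FPKM in TALL2 and at 15.1, 4.35, 5.60 and 2.40 FPKM in TALL3, so that it stood out in TALL3 at 0 g/kg, as Trib3 did. The seryl-tRNA synthetase Sars was at 81.6 and 85.4 FPKM at 0 g/kg, against 48.4 and 47.6 FPKM at 8 g/kg (log2 fold change 0.79, SE 0.13, limma adjusted p = 0.202). Ddit4 was at 78.4 and 111 FPKM at 0 g/kg, against 83.4 and 91.4 FPKM at 8 g/kg (0.10, SE 0.30, limma adjusted p = 0.933).

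Upstream genes differed less in these libraries. The mRNA of the amino acid sensing kinase, Eif2ak4, was at 7.56 and 6.21 FPKM at 0 g/kg, against 6.45 and 7.82 FPKM at 8 g/kg, and its partner Gcn1l1 at 35.8 and 37.5 FPKM at 0 g/kg, against 33.0 and 39.3 FPKM at 8 g/kg. Their ranges overlapped or lay inside those of the controls. Over 12 tested kinases and regulators the median was 0.04, and 1 of them, Eif2ak1, was lower at an unadjusted p under 0.05 in limma. In 13 genes of eIF2, eIF2B and related factors the median was -0.15, and 4 were lower at that p. Of all 9943 tested genes, 1025 reached that p, 476 of them higher and the rest lower. Below both controls lay 8 of the 13, among them Eif2a and Eif2b2 (-0.38 each), beside 22.9% of all tested genes. Ppp1r15b was at 35.1 and 50.6 FPKM at 0 g/kg, against 40.6 and 50.5 FPKM at 8 g/kg with overlapping ranges. Of the Tribbles relatives, Trib1 was at 36.6 and 28.0 FPKM at 0 g/kg, against 21.9 and 11.3 FPKM at 8 g/kg. Trib2 was at 61.0 and 86.9 FPKM at 0 g/kg, against 72.4 and 83.0 FPKM at 8 g/kg.

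Of 18 genes of the unfolded protein response, 11 lay above both controls and none below (median 0.37), beside 19.1% and 22.9% of all tested genes. Hspa5 was at 168 and 254 FPKM at 0 g/kg, against 142 and 130 FPKM at 8 g/kg (0.60, SE 0.21, limma adjusted p = 0.443), and Xbp1 at 30.0 and 45.0 FPKM at 0 g/kg, against 25.1 and 27.0 FPKM at 8 g/kg. In both the TALL3 library was the higher at 0 g/kg. The sensor Atf6 (0.87) and the chaperone Dnajb9 (0.81) had the smallest p in this list. Among 6 genes linked to CHOP and death the median was 0.32. Of these, 4 lay above both controls and 1 below, beside 19.1% and 22.9% of all tested genes. Gadd45a was at 9.69 and 8.71 FPKM at 0 g/kg, against 5.59 and 5.63 FPKM at 8 g/kg. Bcl2 was at 13.6 and 11.7 FPKM at 0 g/kg, against 6.33 and 4.92 FPKM at 8 g/kg. In 22 other bZIP factors the median was 0.30, and 12 lay above both controls, beside 19.1% of all tested genes, led by Fos (2.37).

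**Figure D4:**
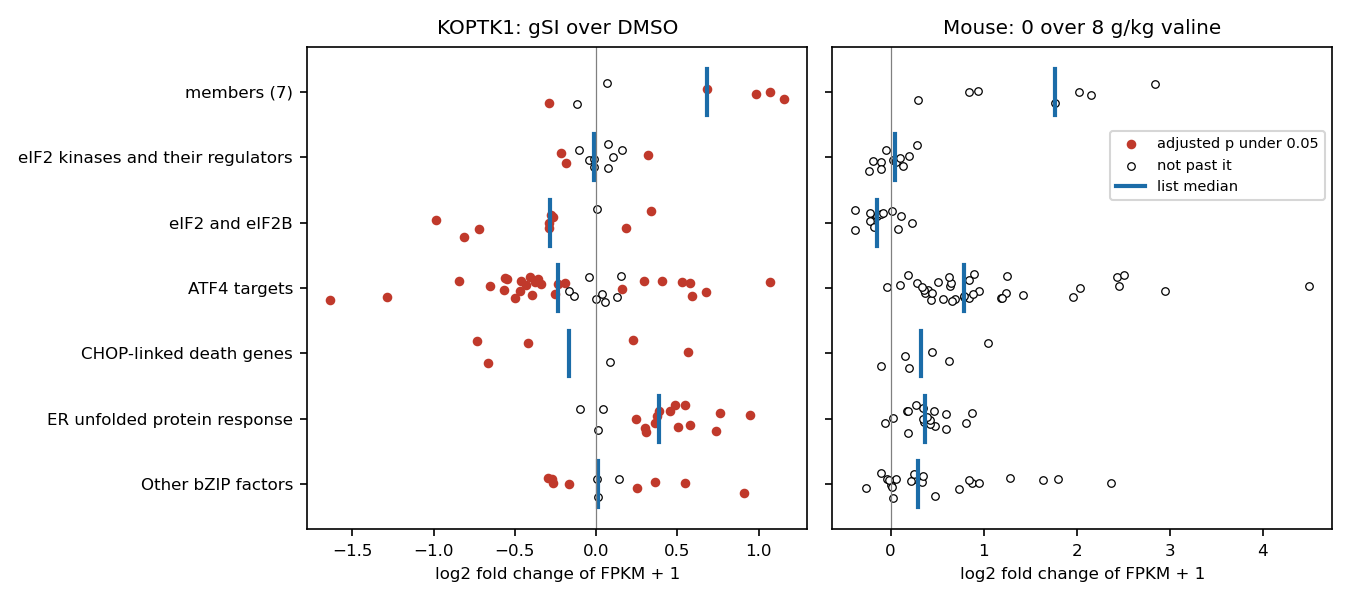
Log2 fold change of FPKM + 1 of every tested gene in 7 lists, for gSI over DMSO in KOPTK1 (left) and 0 over 8 g/kg valine in mouse (right). Filled points passed an adjusted p of 0.05, open points did not, and blue bars are list medians, that of the mouse members with Atf3 included. ATF4 targets spread to both sides in KOPTK1 (median -0.24) and lie mostly above 0 in mouse (median 0.79).

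The members' changes in both systems stand side by side in the plot of fold changes. PPP1R15A, TRIB3, ATF5 and DDIT3 had positive values in both, with 1.07, 0.98, 1.16 and 0.68 for gSI over DMSO and 2.15, 2.84, 2.03 and 0.84 for 0 over 8 g/kg, in that order of genes. CEBPG fell in KOPTK1 (-0.29), and Cebpg was at 0.94 in mouse without passing. ASNS was at 0.05 in KOPTK1 and Asns at 4.50 in mouse (SE 0.93, limma adjusted p = 0.318). The tables were normalised apart and differ in species, so these differences were not tested.

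**Figure D5:**
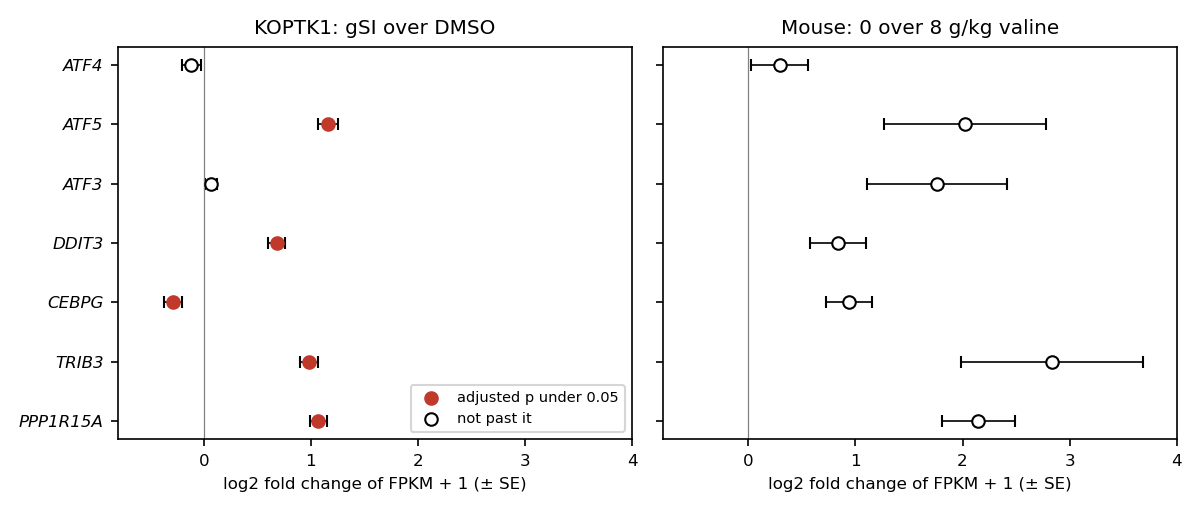
Log2 fold change of FPKM + 1 with its SE for the 7 listed members, for gSI over DMSO (left) and 0 over 8 g/kg valine (right), on the same scale. Filled points passed a limma adjusted p of 0.05. In KOPTK1 4 members rose and CEBPG fell, and in mouse all 7 values are positive with wider errors and none passed.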

How the data were processed

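Bulk RNA was measured in 12 libraries, 2 in each of 6 groups. Per the labels' protocols, RNeasy kits served for RNA and the NEXTflex Rapid Directional kit for libraries. Per the submitters' processing notes, the authors used STAR, edgeR, hg19 and mm10, named without roles or versions. Neither the gene lengths nor the counting tool is given in those notes. The authors deposited an FPKM table for each species, and each was analysed alone with all its sample columns.

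A gene was tested if its FPKM averaged at least 1. limma 3.58.1 (R 4.3.3) was fitted to log2(FPKM + 1), two-sided, with a mean-variance trend and Benjamini-Hochberg adjustment over all tested genes (threshold 0.05). The 8 mouse libraries shared a fit, and the slope used ranks 0, 1, 2 and 3 by falling valine. Whole reads recovered from FPKM steps (tolerance 0.001) gave the depths and an alternative, limma-voom, with library sizes in the ratio of the deposited scaling. A version with plain read totals was added after seeing the data. Recovered lengths had a median of 3180 bp in mouse and 29936 bp in human, so human FPKM were not compared between genes. Replicate libraries differed beyond counting noise (chi-square over degrees of freedom 5.74 to 93.6). The scripts were tested on simulated data.

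The members and gene lists were chosen with earlier results of these data known. Named genes were all members, fixed pathway genes and, in each list, at most 3 that rose and 3 that fell, or the 2 smallest p-values where none passed. PDIA6, CALR and EDEM1 were named after their values were seen. For likeness, candidates needed 5 FPKM or more on average and a log2 range of 1 or more. Mouse positions are from GENCODE M21 (GRCm38). Other alternatives were pseudocounts of 0.1 and 5, no filter or 1 at 5 FPKM, scaling by median ratios or quantiles, no trend, a replicate block, the compared diets alone, log2 of valine, and leaving out each library.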

Additional observations from a re-analysis of the deposited data

How the results depend on the processing

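Of the members' fold changes under all alternatives, 451 values kept their direction and side of the threshold, 3 lost the call, 1 gained it and 7 turned sign. The sign turned for ATF4 with gSI under quantile scaling (0.0882) and with voom on plain read totals (0.0122), and for Atf4 without the TALL3 library at 0 g/kg (-0.0876 for 0 over 8 g/kg and -0.0269 for the slope, where the highest values without a library were 0.670 and 0.148). The interaction of Atf5, which ran from -0.593 to 0.481 when each library was left out, turned without the TALL2 library at 8 g/kg (0.28), without TALL2 at 0.8 g/kg (0.10) and without TALL3 at 0.8 g/kg (0.48), and no interaction could be fitted without either 0 g/kg library. The count of genes called for gSI was 5374 with no filter and 1139 with a filter at 5 FPKM, and 2226 to 3531 when each library was left out. In mouse, leaving out each library gave 0 to 2 genes for the slope, and a pseudocount of 5 gave 6 for the interaction. The count of members at an unadjusted p under 0.05 in limma was made after seeing the data. Over the 6 members without Atf3, either voom version gave 4 for 0 over 8 g/kg and 3 for the slope, in place of 5 in each. Leaving out each library moved their median log2 fold change to between 1.13 and 1.73 for 0 over 8 g/kg. For the slope it lay between 0.35 and 0.49 per step. The counts of members above every control library were within 1.5 times under both scalings. The labels do not say that replicate numbers in KOPTK1, or the names TALL2 and TALL3 in mouse, pair the samples. The main tests therefore left the libraries unpaired. Their deviations correlated at 0.363 to 0.743 in 4 of the 6 pairs of mouse diets (0.566 for 0 and 8 g/kg), at 0.0588 and -0.174 in the others, and at 0.258 in KOPTK1. With the replicate block 3705 genes were called for gSI and 0 in each mouse comparison, and the block changed no member's call. Atf3 in most mouse libraries and Trib3 at 8 g/kg rest on few reads. The cause of these changes was not tested.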
